A study of Mus musculus with 59 samples.

Results

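The genes described here are the nuclear genes for subunits of the mitochondrial oxidative phosphorylation complexes, measured by poly(A) RNA sequencing in mouse prefrontal cortex. They were chosen by symbol from the 18088 genes of the deposited table: names beginning with Nduf followed by a, b, c, s or v and a digit (complex I), with Uqcr (complex III), with Cox and a digit from 4 to 8 (complex IV) or with Atp5 (complex V), leaving out pseudogenes marked -ps and any gene with a mean normalized count under 10. This gave 78 genes, 38 of complex I, 8 of complex III, 15 of complex IV and 17 of complex V. Every row that matched by name was above the minimum, so none was lost to it. The choice used names and the mean level only, not any difference between groups. The 59 mice, C57BL/6J of both sexes, formed 12 groups by genotype, drug and sex: 11 groups had 5 animals, and the group of WT females given lithium had 4. Genotypes were WT and HT, the latter carrying a knock-in change in 1 copy of Shank3, a postsynaptic scaffold gene, and either vehicle, lithium or fluoxetine had reached them through the mother's milk from postnatal day 3 to day 24, for 3 weeks. The cortex was taken at day 25. All 59 pups were therefore nursed by dosed or vehicle dams, and neither dose nor litter is given in the labels, so the p-values below count pups as independent.

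Oxidative phosphorylation passes electrons from NADH through complexes I, III and IV to oxygen, pumps protons across the inner mitochondrial membrane as it does so, and uses their return through complex V, the ATP synthase, to make ATP. Most subunits are encoded in the nucleus and imported, while the hydrophobic cores of these complexes are encoded by mitochondrial DNA, and neurons draw most of their ATP from this pathway. Complex IV has subunit genes with a widely expressed form and a form restricted to muscle, lung or testis. Nuclear respiratory factor 1 (NRF1), GA-binding protein (GABP) and YY1 are transcription factors known for binding promoters of many of these genes.

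The promoters of 5 members are shown because the results below turn on these genes, and they were picked with those results known: Atp5k was higher with lithium in HT mice, Cox8a was lower with lithium in WT mice, Cox6a1 is the abundant partner of Cox6a2, and Ndufv2 and Uqcrfs1 were lower in more than 1 comparison. Each run covers 250 bases before and 50 bases after the annotated start, 5′ to 3′ on the gene's strand, from RefSeq on GRCm38.p6. Capitals mark exact matches to the NRF1 word, 10 letters that read the same on both strands, or to the GABP word CCGGAAG, which reads CTTCCGG on the other strand.
Atp5k (chr5:108434350-108434649, minus strand): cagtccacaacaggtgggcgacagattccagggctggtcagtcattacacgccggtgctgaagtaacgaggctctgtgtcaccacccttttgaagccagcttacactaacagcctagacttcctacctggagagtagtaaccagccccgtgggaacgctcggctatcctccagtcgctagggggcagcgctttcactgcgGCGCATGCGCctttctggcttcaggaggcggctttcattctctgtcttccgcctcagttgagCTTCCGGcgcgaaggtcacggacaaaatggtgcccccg
Cox6a1 (chr5:115348909-115349208, minus strand): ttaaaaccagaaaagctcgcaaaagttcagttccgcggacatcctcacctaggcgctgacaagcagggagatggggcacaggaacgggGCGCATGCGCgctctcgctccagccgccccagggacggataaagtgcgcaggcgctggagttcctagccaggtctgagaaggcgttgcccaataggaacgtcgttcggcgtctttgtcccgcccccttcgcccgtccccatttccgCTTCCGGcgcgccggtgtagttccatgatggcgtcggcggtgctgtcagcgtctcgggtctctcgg
Cox8a (chr19:7217567-7217866, minus strand): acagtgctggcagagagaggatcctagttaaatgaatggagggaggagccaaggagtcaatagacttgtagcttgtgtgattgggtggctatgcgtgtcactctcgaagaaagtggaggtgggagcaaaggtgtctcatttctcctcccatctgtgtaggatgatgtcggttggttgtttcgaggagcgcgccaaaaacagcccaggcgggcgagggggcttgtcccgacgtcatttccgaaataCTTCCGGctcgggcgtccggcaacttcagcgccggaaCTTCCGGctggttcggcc
Ndufv2 (chr17:66101510-66101809, minus strand): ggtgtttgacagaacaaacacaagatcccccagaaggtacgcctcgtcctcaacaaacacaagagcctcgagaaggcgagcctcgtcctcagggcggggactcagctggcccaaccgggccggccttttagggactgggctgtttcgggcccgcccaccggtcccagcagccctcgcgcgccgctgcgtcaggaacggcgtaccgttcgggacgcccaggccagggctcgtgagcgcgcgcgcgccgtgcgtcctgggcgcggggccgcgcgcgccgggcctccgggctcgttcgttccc
Uqcrfs1 (chr13:30545267-30545566, minus strand): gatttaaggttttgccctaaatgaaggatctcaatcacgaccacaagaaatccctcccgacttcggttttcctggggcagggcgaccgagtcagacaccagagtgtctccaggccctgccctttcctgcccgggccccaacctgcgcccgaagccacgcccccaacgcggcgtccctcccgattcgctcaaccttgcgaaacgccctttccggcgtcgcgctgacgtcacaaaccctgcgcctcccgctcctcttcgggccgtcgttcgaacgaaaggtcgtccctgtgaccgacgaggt
The Atp5k and Cox6a1 promoters each held 1 match to both words, Cox8a held 2 matches to the GABP word, and these exact letters were not in the Ndufv2 and Uqcrfs1 windows. No matches overlapped in these 5 windows. RefSeq promoters were found for 63 of the 78 members, 2 of them under a newer symbol. Of these 63, 14 (22.2%) held the GABP word on either strand, against 9.93% of all 27025 promoters in the table and 12.9% of the 17492 of protein-coding genes. The NRF1 word was in 5 members (7.94%), against 1.07% of all promoters. The YY1 word, also of 10 letters, was in 5 (7.94%), against 0.995% of all, and the word TCAAGGTCA of the estrogen-related receptors was in 1 (1.59%), against 0.466% of all. A match is a stretch of letters and was not tested as a binding site.

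The libraries held 22984556 to 35969254 reads assigned to genes, and the members took 0.680% to 0.941% of each library's normalized counts. All 8 markers of cortical excitatory neurons were detected in every arm, with Slc17a7, the vesicular glutamate transporter of these cells, at 41078 to 55343 normalized counts over the 10 WT vehicle libraries. Olfactory bulb markers varied widely between libraries: the 7 tested markers summed to 384 to 8692 in WT vehicle, 618 to 9657 in WT lithium, 288 to 16099 in WT fluoxetine, 297 to 11676 in HT vehicle, 245 to 11421 in HT lithium and 371 to 9751 in HT fluoxetine libraries, with none of the 7 at 0 in all libraries of an arm. By cutoffs on these markers and on mitochondrial transcripts, 7 libraries stood apart: WT fluoxetine females 1, 2 and 4, HT vehicle female 1, HT vehicle male 4 and HT lithium females 4 and 5. The bulb index behind the cutoff is the mean over the bulb markers of each count relative to its mean over all libraries. It left no gap at the cutoff: HT vehicle female 1 was at 2.52, and WT lithium female 1, which was kept, at 2.48. HT lithium female 5 had 2.70% of its normalized counts from mitochondrial genes, while the other 58 had 5.15% to 9.47%. In bulk tissue fewer cells of a type and less RNA per cell cannot be told apart.

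Levels differed far more between members than between groups. In WT vehicle libraries, counts divided by transcript length ran from 26.0 ± 10.2 per kb (SD, n = 10) for Cox7a1, the muscle form of a small complex IV subunit, to 17908 ± 1587 per kb for Cox8a, a small membrane subunit of complex IV. Among complex I genes the highest per kb were Ndufa4 (7495 ± 1050), Ndufb9 (4598 ± 410) and Ndufb8 (3825 ± 170), and the lowest were Ndufa4l2 (83.0 ± 13.1), Ndufb4 (366 ± 56) and Ndufc1 (535 ± 97). Ndufa4 is grouped here by its symbol, although its protein is now placed in complex IV.

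Complex III genes ran from 1966 ± 171 per kb for Uqcrfs1, the Rieske iron-sulfur protein, to 6485 ± 660 for Uqcrq. Between them lay Uqcrc2 (2599 ± 237), a core protein, and Uqcrb (2959 ± 355), a small subunit at the ubiquinone site. Uqcrh (5928 ± 836) and Uqcr11 (4982 ± 553) came next below Uqcrq. Complex IV was led by Cox8a, Cox4i1 (13712 ± 1018) and Cox6a1 (12004 ± 1090). Complex V was led by Atp5b (13775 ± 565) and Atp5a1 (8323 ± 415), the beta and alpha subunits of the catalytic head, and by Atp5g1 (5700 ± 775), a gene for the rotating c ring. Its lowest were Atp5s (228 ± 23), also called factor B, Atp5g2 (485 ± 110) and Atp5j2 (2178 ± 298). The errors of neighbours in these orders often overlapped, as for Atp5g1 and Atp5h (5683 ± 314), while the highest and lowest of each complex were separated by many times their SD.

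**Figure D1:**
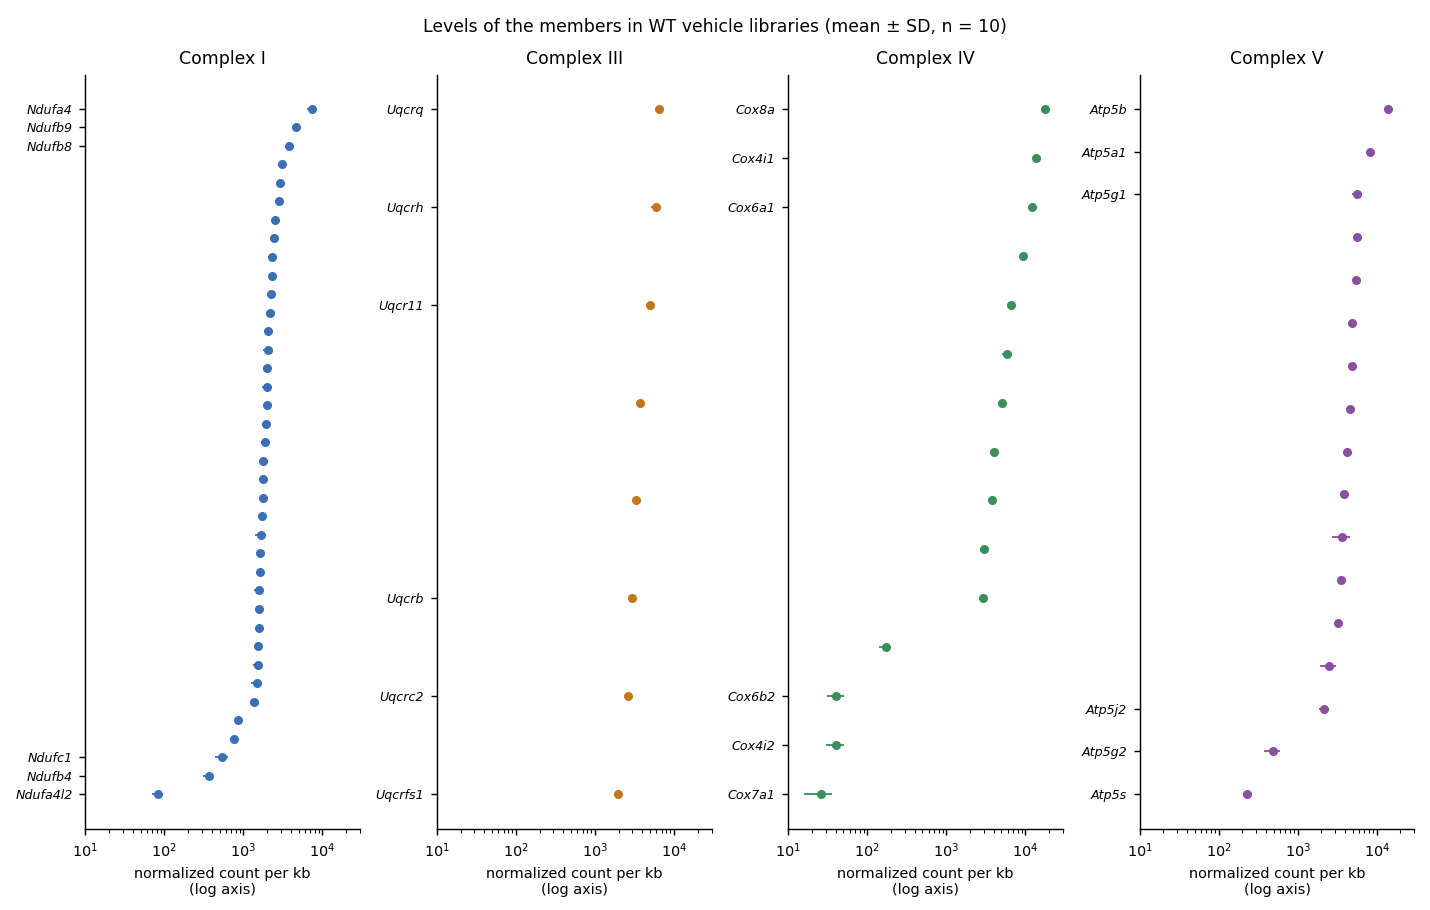
Mean normalized count per kb of transcript in the 10 WT vehicle libraries for each member (log axis, bars are ± 1 SD), one panel per complex, with the 3 highest and 3 lowest of each named. Complex IV spans the widest range, with Cox7a1 at 26.0 and Cox8a at 17908 per kb.

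The tissue-restricted forms were minor beside their widely expressed partners. As a percentage of the partner's level per kb, Cox6a2, the heart and skeletal muscle form, was at 1.04 to 1.65 (median 1.44) of Cox6a1 in WT vehicle libraries. Cox4i2, the lung form, was at 0.223 to 0.430 (median 0.275) of Cox4i1, and Cox6b2, the testis form, was at 0.448 to 0.983 (median 0.568) of Cox6b1. Cox7a1 was at 0.307 to 0.981 (median 0.638) of Cox7a2. Ndufa4l2, a paralogue known as a hypoxia-induced gene, was at 0.863 to 1.36 (median 1.14) of Ndufa4. Of the c ring genes, which encode the same mature protein, Atp5g1 was at 87.2 to 120% of Atp5g3 while Atp5g2 was at 5.49 to 11.9%. Ndufb4c, annotated as a processed pseudogene, had more counts per kb (2283 ± 200) than Ndufb4 (366 ± 56). These 2 genes are near-identical copies whose reads could be split between them, so their levels are uncertain.

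All 78 members had transcripts shorter than the median tested gene: their median was 720.5 bases, against 2766 over the 16599 genes tested. Their median GC content was 52.2%, against 50.2%. Within libraries the 4 complexes tended to move together. Taking each member's log2 level relative to its mean over all libraries, the mean over the 78 members ran from -0.23 to 0.19 between libraries, and in 37 of 59 libraries the means of all 4 complexes lay on the same side of 0. The largest gap between the complexes of 1 library was 0.25 and the median gap was 0.09, the same size as the SD of 0.09 between libraries within groups.

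By group, the members' mean was 0.12 ± 0.07 (SD, n = 5) in HT vehicle females and -0.07 ± 0.13 in HT vehicle males. With lithium it was -0.04 ± 0.10 in HT females and 0.10 ± 0.07 in HT males. WT vehicle females were at 0.05 ± 0.12 and WT vehicle males at 0.02 ± 0.05, against -0.06 ± 0.06 (n = 4) and -0.01 ± 0.06 with lithium. WT fluoxetine females were at 0.03 ± 0.10 and males at -0.08 ± 0.11, HT fluoxetine females at -0.02 ± 0.04 and males at -0.06 ± 0.12. The HT vehicle groups of the 2 sexes thus lay on opposite sides of 0, and so did the HT lithium groups, in the reverse order.

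**Figure D2:**
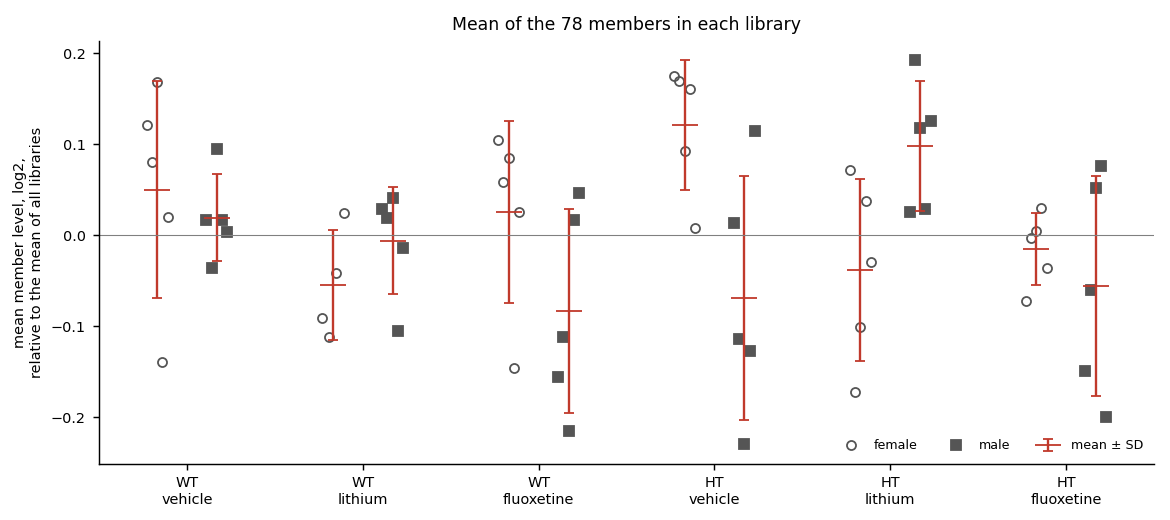
Mean log2 level of the 78 members in each library relative to the mean of all libraries, by genotype and drug (open circles females, filled squares males, red lines mean ± SD of each group). HT vehicle females sit between 0.01 and 0.17 and HT vehicle males between -0.23 and 0.11.

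Lithium against vehicle in HT mice asked which members change with the drug on the mutant background. It moved members in both directions: 11 of 78 (14.1%) were lower and 5 (6.41%) were higher by limma at an adjusted p under 0.05, while over all tested genes 9.43% were lower and 10.9% higher, 20.3% in all. The median member changed by 0.02 on the log2 scale, against -0.0018 for all genes, with 42 members above 0 and 36 below. By complex, 4 of 38 complex I genes fell and 1 rose, 3 of 8 complex III genes fell, 2 of 15 complex IV genes rose, and 4 of 17 complex V genes fell and 2 rose. Of the roles, 2 of 7 complex I core genes and 2 of 3 of the core and Rieske genes of complex III fell. The sign of the median is not firm: it was -0.01 after quantile normalization, and also -0.01 without the 7 libraries that stood apart.

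Ndufv2 (chr17:66078638-66101559, GRCm38) encodes an iron-sulfur protein of the NADH-binding part of complex I. Its normalized count had a lowest, median and highest value of 2575, 2730 and 3062 in HT vehicle and of 2089, 2201 and 2649 in HT lithium libraries. All but 1 of the lithium libraries lay below every vehicle library. The log2 change was -0.29 (SE 0.05, adjusted p 1.44e-05), and it passed in each of the 20 fits that left out 1 library and in each of the 14 alternatives. Ndufs1, the largest core subunit of complex I, had 3894, 4267 and 4579 in vehicle and 3443, 3682 and 4482 in lithium libraries, with 7 of 10 lithium libraries below the vehicle range. It fell by 0.17 (SE 0.04, adjusted p 0.00420), and its highest lithium value was HT lithium female 5. Ndufs1 did not pass in females alone (adjusted p 0.192) or with a trend on GC content removed (adjusted p 0.0712).

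All the complex III genes that passed fell. Uqcrb (chr13:66900617-66905378) had 1424, 1570 and 2170 in vehicle and 1236, 1348 and 1450 in lithium libraries, and 8 of 10 lithium libraries lay below the vehicle range. Its log2 change was -0.29 (SE 0.06, adjusted p 0.000290). Uqcrc2, a core protein, had 4547, 5320 and 5570 against 3839, 4240 and 5030, a change of -0.25 (SE 0.05, adjusted p 0.000256) with 6 lithium libraries below the range. The Rieske gene Uqcrfs1 (chr13:30540308-30545362) fell by less, -0.13 (SE 0.05, adjusted p 0.0422), and its ranges of 2381 to 3052 and 2258 to 2768 overlapped for 6 of 10 lithium libraries. This call was the less stable one: it passed in 8 of the 20 fits without 1 library, with adjusted p up to 0.123.

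In complex V 4 genes fell: Atp5c1, Atp5f1, Atp5s and Atp5mpl. Atp5c1, the gamma subunit that turns inside the head, had 4832, 5649 and 6290 in vehicle and 3443, 5046 and 5515 in lithium libraries and fell by 0.20 (SE 0.05, adjusted p 0.00178). Its low value of 3443 was again HT lithium female 5, and the change passed without that library. Atp5f1, of the peripheral stalk, had 5620, 6704 and 6924 against 4862, 5688 and 6645 and fell by 0.18 (SE 0.04, adjusted p 0.00216). Atp5s had 304, 343 and 372 against 232, 285 and 346, with 8 of 10 lithium libraries below the vehicle range, and fell by 0.27 (SE 0.07, adjusted p 0.00654). The Atp5s call was lost with a trend on GC content removed (adjusted p 0.425) and in each sex alone (adjusted p 0.127 in females and 0.0653 in males). Atp5mpl, a small membrane subunit, fell by 0.28 (SE 0.09, adjusted p 0.0196), with wide and overlapping ranges of 1095 to 1967 and 853 to 1456. The Atp5mpl call was lost without HT lithium female 5, HT lithium male 3 or HT vehicle male 5, with adjusted p up to 0.0648. Ndufb4 and its copy Ndufb4c of complex I also passed, at -0.26 (SE 0.07, adjusted p 0.00892) and -0.23 (SE 0.07, adjusted p 0.0202), with 2 and 1 lithium libraries below the vehicle range. Ndufb4c did not pass without HT lithium female 5 or HT vehicle male 5. In males alone Ndufb4, Ndufb4c and Atp5mpl did not pass, and their direction turned (0.012, 0.049 and 0.012). Uqcrc2, Atp5c1 and Atp5f1 also did not pass in males alone, and Uqcrfs1 did not pass in either sex alone.

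The 5 members that rose were Cox6a2, Atp5k, Atp5d, Cox4i1 and Ndufb9. Cox6a2 (chr7:128205435-128206387) had 49.3, 112 and 129 normalized counts in HT vehicle and 94.8, 143 and 209 in HT lithium libraries. Of the lithium libraries, 7 of 10 lay above the vehicle range, and the log2 change was 0.50 (SE 0.14, adjusted p 0.00900), the largest of any member in this comparison. Markers of skeletal muscle, 3 of which were tested, summed to 135 to 262 in HT vehicle and 160 to 288 in HT lithium libraries and none passed. Of 6 interneuron markers 3 were below 0, and only Pvalb passed, at 0.47 (SE 0.16, adjusted p 0.0308). The part of these markers in the Cox6a2 result was not tested. Atp5k, subunit e of the membrane part of complex V, had 885, 1183 and 1537 against 1178, 1517 and 1927 and rose by 0.35 (SE 0.09, adjusted p 0.00574). Atp5d, the delta subunit of the central stalk, rose by 0.26 (SE 0.08, adjusted p 0.0134), from 3636 to 4909 in vehicle to 4046 to 6294 in lithium libraries. Cox4i1, the main regulatory subunit 4 of complex IV, rose by 0.21 (SE 0.07, adjusted p 0.0244), with 8187 to 10813 and 8919 to 12860.4. Its call was lost without HT lithium female 1 or 5 or HT vehicle male 3 or 4. Ndufb9 was the weakest, at 0.16 (SE 0.06, adjusted p 0.0475), and passed in 8 of the 20 fits without 1 library.

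Cox6a2, Atp5d and Uqcrc2 overlap a gene on the opposite strand (Itgad, Cbarp and Pdzd9), and how the counting used strand is not given in the sources used here. Base composition differed between the 2 directions. The 5 members that rose had 52.8% to 61.1% GC (median 55.4%), the 11 that fell had 39.0% to 52.2% (median 46.6%), and the 62 others had a median of 53.4%. After a trend on GC content was removed in each library, 11 members were lower and 2 higher, while 4.70% of all genes were lower and 6.58% higher. The 2 higher ones were Atp5k and Cox6a2. The 11 lower ones were not the same genes as before: Ndufs1, Atp5s, Atp5mpl and Uqcrfs1 no longer passed. After a trend on transcript length was removed, 11 were lower and 16 higher, while 9.34% of all genes were lower and 9.87% higher. Olfactory bulb markers had a median log2 change of -1.08 in the same comparison, none of 7 passing, and with their mean as a covariate 13 members were lower and 4 higher, while 11.6% of all genes were lower and 13.2% higher. In the main fit, markers of microglia (3 of 6), astrocytes (2 of 6), endothelial and mural cells (2 of 6), interneurons (1 of 6) and excitatory neurons (1 of 8) were higher. Over all genes 10.9% were higher. Below 0, with none passing, were 1 microglia, 1 astrocyte, 3 interneuron and 1 excitatory neuron marker. All 6 oligodendrocyte markers (median -0.31) and all 6 choroid plexus markers (median -0.60) were also below 0, and none passed. Their part in the members' changes was not tested. Without the 7 libraries that stood apart, 9 were lower and 2 higher, while 6.78% of all genes were lower and 7.59% higher. The number of higher members rested on single libraries: it was 3 without HT lithium female 1, HT vehicle male 3 or HT vehicle male 4, 8 without HT lithium female 3 or HT vehicle male 5, and 11 without HT lithium female 2.

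**Figure D3:**
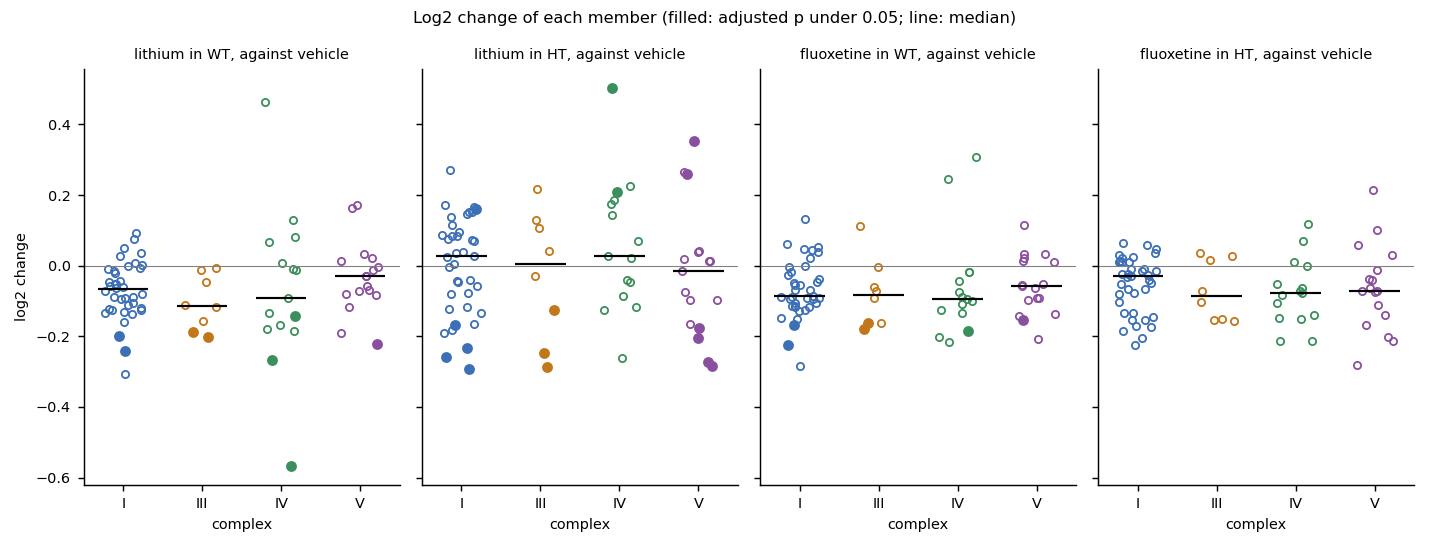
Log2 change of each of the 78 members with lithium or fluoxetine against vehicle in WT and HT mice, by complex (filled points have an adjusted p under 0.05, black lines are medians). In WT lithium and in both fluoxetine comparisons the medians of all complexes lie below 0, and only in HT lithium mice are filled points on both sides of 0.

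No interaction with sex passed for a member by limma in this comparison, and the counts by sex are given as a description. Fitted in females alone, 16 members (20.5%) fell and none rose, while 3.30% of all genes fell and 3.72% rose. In males alone 20 members (25.6%) rose and 3 fell, while 8.81% of all genes rose and 7.39% fell. The median member changed by -0.15 in females and by 0.16 in males. The interaction of sex with lithium in HT mice had a median of -0.35 over the members (effect in females minus effect in males), with 73 of 78 below 0 and 46 at an unadjusted p under 0.05, against 2838 of all 16599 genes. Of the mitochondrial ribosomal protein genes 75 of 78 were below 0 and of the cytosolic ones 79 of 90, with 30 of each at an unadjusted p under 0.05. None passed the adjusted threshold by limma or by edgeR, where 0.012% of all genes passed by limma, and 12 passed by DESeq2. With limma the count was 14 without HT vehicle male 5, 8 without HT lithium female 1 and 3 without HT vehicle male 1. It was 2 without HT vehicle female 1 or 5, so it rested on single libraries. Shares of all genes by DESeq2 and without these libraries are not given here, so these counts cannot be set against them.

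The largest interaction was that of Ndufa4, at -0.79 (SE 0.17, adjusted p 0.0664). Its counts were 5880, 6265, 5526, 5841 and 4524 in the 5 HT vehicle females and 4577, 3777, 4034, 4385 and 2325 in the HT lithium females. In males they were 4314, 3773, 3531, 3674 and 6093 with vehicle and 4735, 5311, 5070, 4254 and 4831 with lithium. Only 1 lithium female overlapped the vehicle females, and in males the lithium range lay within the vehicle range. Cox7b, a small complex IV subunit, had an interaction of -0.55 (SE 0.12, adjusted p 0.0664): it ranged over 3199 to 3826 in vehicle and 2029 to 3173 in lithium females, which did not overlap, and over 2309 to 3556 and 2825 to 3367 in males. Cox6a2 was at 49.3 to 128 in vehicle and 141 to 209 in lithium males, with no overlap, and at 94.95 to 129 and 94.8 to 144 in females. By contrast Ndufv2 fell by 0.35 (SE 0.07) in females and by 0.23 (SE 0.07) in males, and Uqcrb by 0.32 (SE 0.08) and 0.25 (SE 0.08). Summed olfactory bulb markers ran from 636 to 11421 in HT lithium females and from 245 to 927 in HT lithium males, against 297 to 9696 and 455 to 11676 in HT vehicle females and males. The 8 excitatory neuron markers summed to 173155 to 189014 in HT lithium males and 127930 to 168365 in HT lithium females. The part of these differences in the split by sex was not tested.

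**Figure D4:**
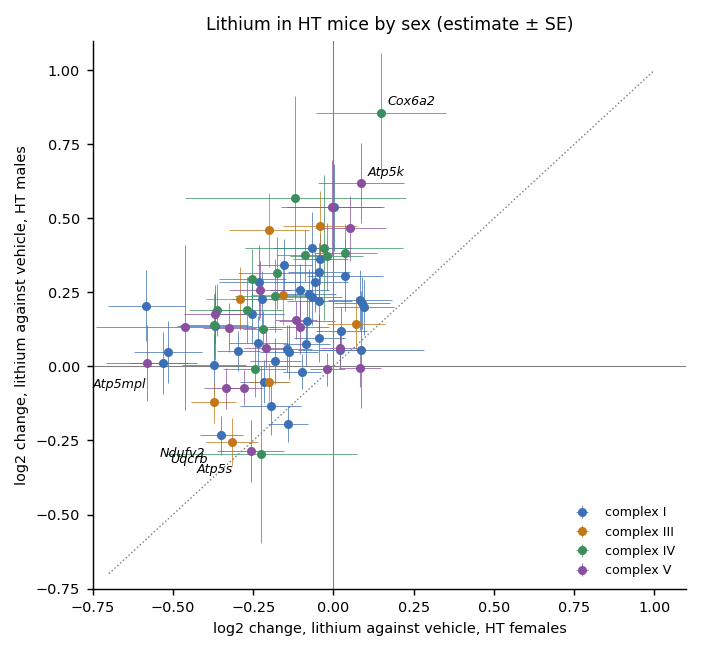
Log2 change with lithium in HT females (horizontal axis) and HT males (vertical axis) for each member, ± SE, coloured by complex; the dotted line marks equal change. All but 5 of the 78 members lie above the dotted line, and Ndufv2, Uqcrb and Atp5s lie below 0 in both sexes.

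Lithium in WT mice lowered members and raised none: 8 of 78 (10.3%) fell, while 5.11% of all tested genes fell and 7.66% rose, 12.8% in all. The median member changed by -0.07 and 61 of 78 were below 0. All 8 complex III genes were below 0, and Uqcrfs1 and Uqcrb passed. The genes that fell in complex IV were Cox8a, Cox7a2l and Cox4i2, in complex I Ndufc2 and Ndufb3, and in complex V Atp5s. Uqcrfs1 had 2325, 2666 and 3054 in WT vehicle and 2137, 2363 and 2542 in WT lithium libraries. Most lithium libraries lay in the lower part of the vehicle range and 3 of 9 below it, a change of -0.19 (SE 0.05, adjusted p 0.00520). Uqcrb had 1339, 1584 and 1890 against 1264, 1365 and 1534 and fell by 0.20 (SE 0.06, adjusted p 0.0171), with 4 of 9 lithium libraries below the range.

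Cox8a, the most abundant member per kb, had 8265, 9901 and 11138 normalized counts in WT vehicle and 7236, 8116 and 9019 in WT lithium libraries. Of the lithium libraries 6 of 9 lay below the vehicle range, and the change was -0.27 (SE 0.08, adjusted p 0.0226). Cox7a2l fell by 0.14 (SE 0.04, adjusted p 0.0233), from 2925 to 3560 in vehicle to 2682 to 3273 in lithium libraries. Cox4i2 fell by 0.57 (SE 0.18, adjusted p 0.0277), from 20.8 to 41.6 to 9.54 to 30.2 counts, a low level near the minimum. Ndufc2, an accessory subunit of the membrane arm, fell by 0.24 (SE 0.07, adjusted p 0.0143), Ndufb3 by 0.20 (SE 0.07, adjusted p 0.0381) and Atp5s by 0.22 (SE 0.08, adjusted p 0.0451). Uqcrfs1, Ndufc2 and Uqcrb passed in each of the 19 fits without 1 library, Ndufb3 in 10 and Atp5s in 6. Cox8a was lost without WT lithium male 4 or WT vehicle female 3, Cox7a2l without WT lithium female 1 or male 4, and Cox4i2 without WT lithium male 2 or 4, WT vehicle female 5 or WT vehicle male 3.

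In this comparison 3 of 6 endothelial and mural markers (Kdr, Pdgfrb and Cldn5) and 1 of 6 microglia markers (Cx3cr1) were lower, with medians of -0.16 and -0.08, and bulb markers had a median of -0.33 with none of 7 passing. The endothelial marker Flt1 was above 0, at 0.20, and did not pass (adjusted p 0.0748). Of the microglia markers 2 were above 0, and neither passed. Their part in the members' changes was not tested. These WT calls were sensitive to length and to single libraries. After the length trend was removed, none of the 8 passed and 1 other member was higher, with a median of -0.0034. Over all genes 3.13% were lower and 4.27% higher in that fit. The count was 3 without WT lithium male 4 and 5 without WT lithium female 1, WT vehicle female 3 or WT vehicle male 3. In females alone 7 members fell and none rose, while 1.25% of all genes fell and 2.09% rose. In males alone none passed, while 0.994% of all genes fell and 1.98% rose, and the interaction with sex passed for none of the 78 by limma, edgeR or DESeq2, with 13 at an unadjusted p under 0.05 and 0.0% of all genes called. Genes of cytosolic ribosomal proteins, also short (median 784.5 bases), had a median of -0.11 with 17 of 90 lower and 1 higher, and those of mitochondrial ribosomal proteins a median of -0.10 with 15 of 78 lower. Lithium comparisons in the 2 genotypes use separate vehicle mice. Uqcrb, Uqcrfs1 and Atp5s were lower in both, 37.5% of the 8 in WT and 27.3% of the 11 in HT. The matching overlap over all tested genes is not given here, so these percentages cannot be set against it.

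**Figure D5:**
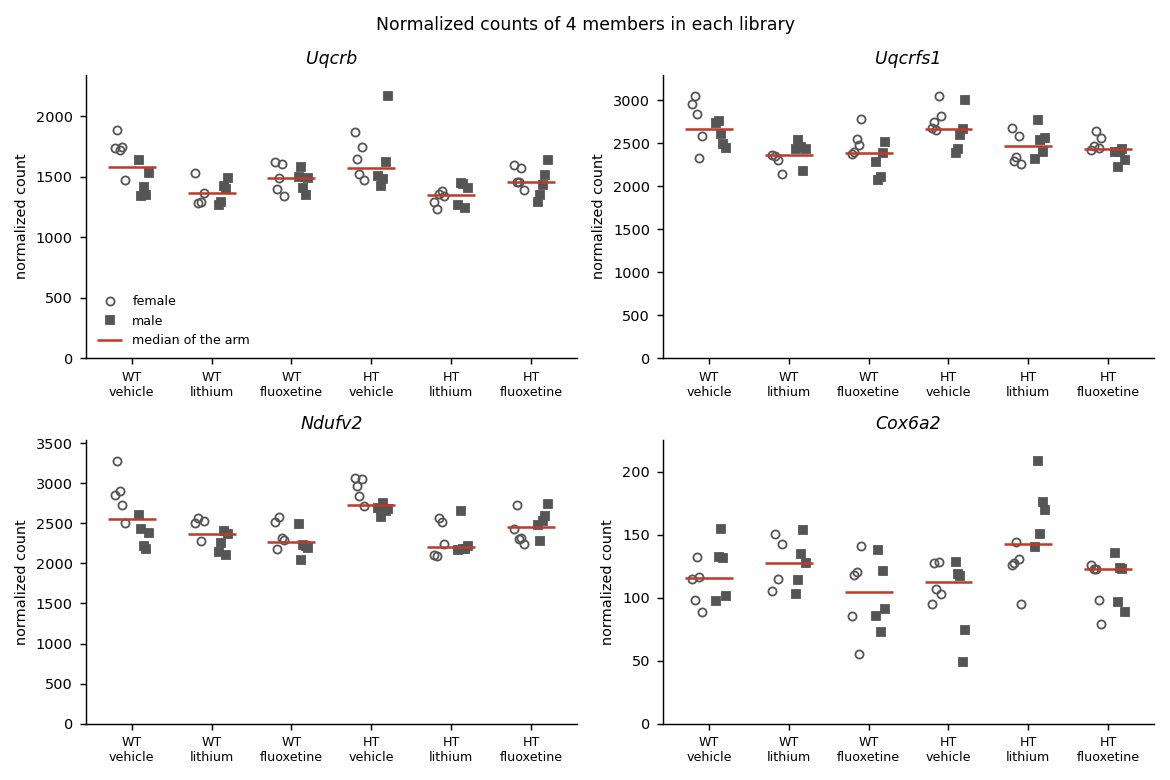
Normalized counts of Uqcrb, Uqcrfs1, Ndufv2 and Cox6a2 in every library by genotype and drug (open circles females, filled squares males, red line median of the arm; axes start at 0). Uqcrb is at a median of 1570 in HT vehicle and 1348 in HT lithium libraries, and Cox6a2 is highest in HT lithium males.

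Fluoxetine in WT mice also lowered members and raised none. Here 6 of 78 (7.69%) fell, while 2.11% of all genes fell and 3.54% rose, 5.66% in all, with a median of -0.09 and 62 of 78 members below 0. All 11 widely expressed complex IV subunits were below 0, of which Cox7a2l passed. It had 2925, 3256 and 3560 in WT vehicle and 2546, 2896 and 3153 in WT fluoxetine libraries, 7 of 10 of them below the vehicle range, and fell by 0.19 (SE 0.04, adjusted p 0.00549). Uqcrc2 fell by 0.18 (SE 0.05, adjusted p 0.0211), Atp5f1 by 0.15 (SE 0.04, adjusted p 0.0218), Ndufv2 by 0.17 (SE 0.05, adjusted p 0.0245), Uqcrfs1 by 0.16 (SE 0.05, adjusted p 0.0258) and Ndufc2 by 0.22 (SE 0.07, adjusted p 0.0365). Their ranges overlapped those of vehicle libraries for all but 1 to 3 of the 10 fluoxetine libraries. This comparison uses the same WT vehicle mice as the lithium one, so the sharing of Cox7a2l, Uqcrfs1 and Ndufc2 between them is not independent.

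The WT fluoxetine calls did not survive removal of the length trend (0 lower), and 3 were left after removal of the GC trend. Over all genes 1.01% were lower without the length trend and 1.80% without the GC trend. Without the libraries that stood apart 4.45% of all genes were lower. The count was 1 without WT fluoxetine female 2, and 3 without WT fluoxetine male 2 or WT vehicle female 2 or 3; 5 were lower without the libraries that stood apart, 3 of the 6 among them. Cox7a2l passed in each of the 20 fits without 1 library. Oligodendrocyte markers were lower in the same comparison, 3 of 6 passing with a median of -0.63, and bulb markers had a median of -0.89 with none of 7 passing; their part in the result was not tested. Blood markers had a median of -0.51, none of 5 passing. The 6 members that fell had 42.0% to 49.9% GC. In females alone 6 members fell and 1 rose, while 4.01% of all genes fell and 3.75% rose. In males alone none passed, while 0.825% of all genes fell and 1.60% rose. The median member nevertheless changed by -0.03 in females, with 44 of 78 below 0, and by -0.09 in males, with 68 below 0.

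The interaction of sex with fluoxetine in WT mice passed for 5 of 78, 4 with a higher effect in females and 1 with a lower one, while 3.58% and 5.08% of all genes passed in these directions, 8.66% in all, so the members' share was not above that of all genes. Ndufs7, a core subunit of complex I that carries its last iron-sulfur cluster, had 1097, 1080, 1219, 800 and 1322 counts in vehicle and 1647, 1641, 1423, 1295 and 1230 in fluoxetine females, and 1367, 1276, 1412, 1343 and 1178 against 917, 931, 1015, 1294 and 1200 in males. Fluoxetine females were mostly above and fluoxetine males mostly below their vehicle groups, with some overlap in each, and the interaction was 0.71 (SE 0.17, adjusted p 0.00927). The others were Atp5d at 0.50 (SE 0.16, adjusted p 0.0364), Ndufa11 at 0.40 (SE 0.13, adjusted p 0.0448), Ndufs8 at 0.36 (SE 0.12, adjusted p 0.0498) and Atp5f1 at -0.26 (SE 0.08, adjusted p 0.0419). None of the 5 passed without the libraries that stood apart, 3 of which are WT fluoxetine females, and none after removal of the GC trend. The count of 5 was 1 without WT fluoxetine female 2, WT fluoxetine male 1 or 3 or WT vehicle male 4, 2 without WT fluoxetine male 2, WT vehicle female 4 or WT vehicle male 3, 3 without WT fluoxetine female 1 or 3, WT vehicle female 1, 2 or 5 or WT vehicle male 1 or 5, and 9 without WT fluoxetine female 5 or male 5. Ndufs7 passed in each of the 20 fits without 1 library.

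Fluoxetine in HT mice called no member by limma, where 0.277% of all genes were called, 0.205% higher and 0.0723% lower. There were 22 members at an unadjusted p under 0.05, against 1933 of all 16599 genes. edgeR called 1 member and DESeq2 5, all lower, while edgeR called 0.139% and DESeq2 0.524% of all genes lower. The median was -0.06, with 57 of 78 below 0. Nearest to the threshold were Atp5f1 at -0.17 (SE 0.04, adjusted p 0.0551) and Ndufv2 at -0.18 (SE 0.05, adjusted p 0.0621). In females alone none passed, while 0.0301% of all genes fell and 0.00602% rose, and in males alone none passed of members or of other genes (0.0%). The largest change in each complex was that of Atp5mpl (-0.28), Ndufb4 (-0.22), Cox6b2 (-0.21) and Uqcrc2 (-0.16), and none of these 4 passed. Leaving out 1 library gave 3 lower members without HT vehicle female 5, 2 without HT vehicle male 2 or 3 or HT fluoxetine male 5, and 1 without HT vehicle male 4 or HT fluoxetine female 2 or 3.

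The knock-in allele itself was compared with WT under each treatment, and no member passed in any of the 3 comparisons by limma, edgeR or DESeq2, nor did any other gene by limma (0.0% of all genes). With vehicle 5 members, with lithium 7 and with fluoxetine 3 were at an unadjusted p under 0.05, and the medians were -0.02, 0.06 and -0.0046. With vehicle the largest changes were those of Ndufa4l2 at -0.33 (SE 0.14, adjusted p 0.721), Cox6b2 at 0.28, Atp5mpl at 0.19 and Uqcr11 at -0.11. With lithium the lowest p was that of Cox4i2, at 0.69 (SE 0.18, adjusted p 0.150), whose counts were 9.54 to 30.2 in WT lithium and 20.8 to 53.0 in HT lithium libraries. By sex, all 15 complex IV members were above 0 in HT vehicle females against WT and all 15 were below 0 in HT vehicle males. No member passed in either sex alone; in females no gene did (0.0%), and in males 0.512% of all genes rose and 0.307% fell. The sex by genotype interaction nevertheless passed for no member by limma, edgeR or DESeq2 (10 at an unadjusted p under 0.05; 0.00602% of all genes called).

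No member passed the test of a difference in the lithium effect between the genotypes (13 at an unadjusted p under 0.05, none by edgeR or DESeq2, 0.00602% of all genes by limma), with a median of 0.08 for the effect in HT minus that in WT. The largest was Cox4i2 at 0.75 (SE 0.25, adjusted p 0.240). The genotype by fluoxetine interaction passed for no member (1 at an unadjusted p under 0.05, none by edgeR or DESeq2, 0.0% of all genes by limma), with Atp5l nearest at -0.23 (adjusted p 0.947). A change past the threshold in 1 genotype only, such as that of Cox6a2 with lithium, is therefore not shown to differ between them. Interactions of sex with fluoxetine in HT mice also passed for none (9 at an unadjusted p under 0.05, none by edgeR or DESeq2, 0.0% of all genes).

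Other genes of the pathway were counted from lists of known function. Over all tested genes 9.43% were lower and 10.9% higher with lithium in HT mice. With lithium in HT mice none of 4 complex II genes and 1 of 13 mitochondrially encoded subunits passed, mt-Co2 at 0.90 (SE 0.28, adjusted p 0.0189). Of the 13 mitochondrially encoded subunits 9 were below 0, with a median of -0.16. In HT against WT mice with vehicle, mt-Co2 was at -0.67 and did not pass. Of 5 subunits and carriers outside the symbol rule 2 fell, Cycs, cytochrome c, at -0.26 (adjusted p 0.00809) and Usmg5 at -0.24 (adjusted p 0.00816). Of 44 assembly factors 8 fell and none rose, among them Surf1 (-0.16, adjusted p 0.00243) and Cox11 (-0.22, adjusted p 0.00738), both needed to build complex IV, and Ndufaf5 (-0.18, adjusted p 0.00783), of complex I. Of 17 genes of pyruvate dehydrogenase and the tricarboxylic acid cycle 5 fell and 3 rose, and of 16 glycolysis genes 6 rose and none fell, with Gpi1 at 0.22 (adjusted p 0.00125), Hk1 at 0.32 (adjusted p 0.0106) and Eno1 at 0.22 (adjusted p 0.0145).

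Of 13 regulators of mitochondrial biogenesis 3 rose and 1 fell in HT lithium mice. Ppargc1b, a coactivator of the PGC-1 family, rose by 0.50 (SE 0.09, adjusted p 6.72e-05), Polrmt, the mitochondrial RNA polymerase, by 0.30 (SE 0.05, adjusted p 4.69e-05) and Pprc1 by 0.23 (adjusted p 0.0131), while Tfb2m, a mitochondrial transcription factor, fell by 0.27 (adjusted p 0.00170). With lithium in WT mice the same 3 rose (Ppargc1b 0.41, adjusted p 0.00164; Polrmt 0.25, adjusted p 0.00107; Pprc1 0.25, adjusted p 0.0141) and Gabpb1, a GABP subunit, fell by 0.17 (adjusted p 0.0421). None of 4 complex II genes, none of 5 outside the rule and none of 13 mitochondrially encoded genes passed there, while 5 of 44 assembly factors fell, 1 of 17 of the pyruvate dehydrogenase and cycle list fell and 2 of 16 glycolysis genes rose. With fluoxetine in WT mice 3 regulators rose, Ppargc1b by 0.37 (adjusted p 0.00939), Polrmt by 0.24 (adjusted p 0.00423) and Nrf1 by 0.22 (adjusted p 0.00617), 2 of 44 assembly factors and 1 of 17 of the cycle list fell, 1 of 16 glycolysis genes rose, and no complex II, mitochondrially encoded or outside-rule gene passed. With fluoxetine in HT mice, of all these lists only Usmg5 passed, at -0.31 (adjusted p 0.0245). Over all tested genes 0.0723% were lower and 0.205% higher in that comparison. The shares over all tested genes were 5.11% lower and 7.66% higher with lithium in WT mice. With fluoxetine in WT mice they were 2.11% lower and 3.54% higher.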

How the data were processed

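Poly(A) RNA from 59 cortices was sequenced with a stranded mRNA kit, per the labels' protocols. The submitters' processing notes name Salmon 0.11.2, GRCm38, DESeq2 1.19.11 and R 3.6.0. The signal values deposited by the authors are normalized counts per gene. Dividing by each library's step gave whole reads (100% of values within 0.001), 22984556 to 35969254 per library. This depth, and the 4 or 5 mice per group, set the precision. Symbols were found for 18077 of 18088 genes.

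The 16599 genes with a mean of at least 10 were fitted as log2(value + 1) with limma 3.58.1 (trend and robust; R 4.3.3), using 12 group means and all libraries. Fold changes are on that scale and understate changes of low genes. The 14 comparisons were tested two-sided, and Benjamini-Hochberg adjustment ran over all genes within each comparison with a threshold of 0.05. Sexes were weighted equally. edgeR 4.0.16 and DESeq2 1.42.0 on the recovered reads, other pseudocounts, filters, scalings, covariates and left-out libraries were alternatives. The limma fit was also run on simulated counts with known changes. These had no shifts shared within a library, and recovery was required only for changes larger than those of the members called here. That run therefore cannot decide how reliable the calls are. Members, lists and promoters were chosen with earlier results of these data known. Genes named are those past the threshold, the largest change per complex in some comparisons but not all, and the highest and lowest per kb. Tissue-restricted isoforms and members with an interaction are also named, and others were chosen after their values were seen. Some items are not reported here.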

Additional observations from a re-analysis of the deposited data

Results flagged for a closer look

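In 8 of 174 arms and members looked at (4.60%), 1 library stood far from the others; chance gives about 1 in 20. Of these, 5 were HT lithium female 5, the library low in mitochondrial transcripts: Atp5c1 at 3443 normalized counts (next 4660), Ndufb4 at 207 (next 309), Ndufb4c at 449 (next 729), Ndufb3 at 1802 (next 1321) and Ndufs1 at 4482 (next 3997). In HT fluoxetine mice the lone libraries were female 5 for Atp5c1 at 4564 (next 4999) and male 5 for Cox4i1 at 7247 (next 9459) and Ndufb9 at 2420 (next 2964).

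In WT mice limma's interaction of sex with fluoxetine (effect in females minus effect in males) passed for Ndufs7 at 0.71 (adjusted p 0.00927) and Atp5d at 0.50 (adjusted p 0.0364). It also passed for Ndufa11 at 0.40 (adjusted p 0.0448), Ndufs8 at 0.36 (adjusted p 0.0498) and Atp5f1 at -0.26 (adjusted p 0.0419). Over all genes 8.66% passed. None of these members passed without the libraries that stood apart, and none after removal of the GC trend.

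In HT mice every lithium female lay below the vehicle female mean and every lithium male above the vehicle male mean for the mean of all members, -0.16 in females and 0.17 in males. The same held for complex I (-0.15 and 0.14), complex III (-0.19 and 0.14), complex IV (-0.16 and 0.28) and complex V (-0.18 and 0.14). These differences between the sexes in the means were not tested. Cox7a2l did so too (-0.22 and 0.13), and its interaction did not pass (adjusted p 0.0921). Opposite directions by sex in every library were also seen for Ndufb4c (-0.23 and 0.05) and Ndufb9 (-0.13 and 0.20) with lithium in WT mice, where no member passed the interaction, and for Ndufs7 (0.40 and -0.31) with fluoxetine in WT mice, which did.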

How the results depend on the processing

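Shares of all genes in the same fit and direction are given in brackets. With lithium in HT mice the count of higher members (5, and 10.9% of all genes) was 3 after quantile normalization (10.3%). It was 2 without the 7 libraries that stood apart (7.59%), 16 with the length trend removed (9.87%) and 2 with the GC trend removed (6.58%). It was 0 in females alone (3.72%), 20 in males alone (8.81%) and 8 by DESeq2 (11.9%). That of lower members (11, and 9.43% of all genes) was 3 in males alone (7.39%). With lithium in WT mice removing the length trend gave 1 higher (4.27%) and 0 lower (3.13%), where the main fit had 8 lower (5.11%). Males alone gave 0 lower (0.994%). With fluoxetine in HT mice the lower count (0, and 0.0723% of all genes) was 4 after quantile normalization (0.169%). It was 2 with the bulb covariate (0.253%), 1 without the libraries that stood apart (0.12%), 1 by edgeR (0.139%) and 5 by DESeq2 (0.524%). With fluoxetine in WT mice females alone gave 1 higher (3.75%). The lower count (6, and 2.11% of all genes) was 2 with only the groups compared (0.825%) and 12 with the bulb covariate (9.06%). It was 0 with the length trend removed (1.01%), 3 with the GC trend removed (1.80%) and 0 in males alone (0.825%). For the interactions below, and for fits without 1 library, the shares of all genes in the same fits are not given here. The genotype by lithium count (0) was 3 in males alone. The sex by lithium count in HT mice (0) was 6 with the GC trend removed and 12 by DESeq2. The sex by fluoxetine count in WT mice (5) was 1 with only the groups compared, 8 with the bulb covariate, 0 without the libraries that stood apart, 0 with the GC trend removed and 8 by DESeq2. For lithium in HT mice, males alone reversed Ndufb4 (0.012), Atp5mpl (0.012) and Ndufb4c (0.049), and females alone reversed Ndufb9 (-0.040). Fits to 1 sex use fewer libraries; otherwise the cause was not tested. Leaving out 1 library gave 3 to 11 higher and 8 to 15 lower members for lithium in HT mice, 3 to 12 lower for lithium in WT, 0 to 3 lower for fluoxetine in HT, 1 to 9 lower for fluoxetine in WT, 0 to 14 for sex by lithium in HT and 1 to 9 for sex by fluoxetine in WT. Replicate numbers did not pair the samples (median correlation -0.0086 for the same number; 89 of 319 pairs over 0.1). With a replicate block the counts were 4 higher (10.9%) and 11 lower (9.45%) for lithium in HT. They were 6 lower (5.07%) for lithium in WT, 6 lower (2.14%) for fluoxetine in WT and 4 for sex by fluoxetine in WT.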
